A study of Mus musculus with 8 samples.

Results

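The AP-1 and immediate early transcription factors of the mouse pancreas are described here as a group of 10 genes out of the 48709 in the expression table. They were chosen by name: *Fos*, *Fosb*, *Fosl1*, and *Fosl2* of the Fos family, *Jun*, *Junb*, and *Jund* of the Jun family, the related factor *Atf3*, and the growth and stress response factors *Egr1* and *Myc*. All 10 were present in the table, and 9 passed the filter on low values in at least 1 comparison. RNA-Seq was performed on bulk pancreas of 8-week-old male mice taken 24 hours after saline or after palmitoleic acid (POA) with ethanol, a mixture that forms fatty acid ethyl esters and causes severe acute pancreatitis (FAEE-SAP). Wild-type (WT) mice were compared with conditional knockout (cKO) mice, which carried *Pfkfb3* fl/fl with Cre under the *Pdx1* promoter, a promoter active across the developing pancreatic epithelium, so that deletion is aimed at acinar, ductal, and islet cells and not at infiltrating blood cells. The 4 groups were WT saline, cKO saline, WT FAEE-SAP, and cKO FAEE-SAP, with 2 libraries in each. WT mice were bought from a supplier and were not littermates of the cKO line, so genotype and origin cannot be told apart. No source says which libraries were handled together, and p-values measure the spread between 2 libraries per group.

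AP-1 is a dimer of a Jun protein with a Fos protein, a second Jun protein, or a member of the ATF family, and binds short palindromic DNA elements in the promoters and enhancers of inflammatory, matrix, and survival genes. *Fos*, *Fosb*, *Jun*, *Junb*, *Atf3*, *Egr1*, and *Myc* are immediate early genes, whose transcription starts within minutes of a stimulus without new protein synthesis and whose mRNA is short-lived. *Jund* is present in resting cells, and *Fosl1* and *Fosl2* encode the later and longer-lived Fos proteins Fra-1 and Fra-2. In the pancreas these genes are known to respond to acinar cell injury and also to the handling of tissue.

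The 250 bases before the RefSeq transcription start are shown for 3 members, *Junb*, which was called in both the WT response and the genotype comparison, and *Fos* and *Jun*, the prototype partners, which did not pass the test. A window was matched for 7 of the 10 members (*Atf3*, *Fos*, *Fosb*, *Fosl2*, *Jun*, *Junb*, and *Jund*) in the RefSeq promoters of GRCm38.p6. The *Jund* window precedes a start at 70697739, upstream of the gene start at 70698949 used below. The windows of *Atf3*, *Fosb*, and *Fosl2* hold annotated exon sequence of the same gene. The windows are chr8:84978749-84978998 on the minus strand for *Junb*, chr12:85473640-85473889 on the plus strand for *Fos*, and chr4:95052223-95052472 on the minus strand for *Jun*. They are written 5′ to 3′ in the direction of transcription, with capitals for matches on either strand to TGACG, the core of the cAMP response element, and to TATAAA.
Junb: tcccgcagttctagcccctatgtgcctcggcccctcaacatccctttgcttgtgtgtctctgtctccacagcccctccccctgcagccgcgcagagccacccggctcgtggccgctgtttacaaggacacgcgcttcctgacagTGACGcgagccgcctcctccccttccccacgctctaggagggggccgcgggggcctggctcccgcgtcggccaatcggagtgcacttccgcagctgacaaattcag
Fos: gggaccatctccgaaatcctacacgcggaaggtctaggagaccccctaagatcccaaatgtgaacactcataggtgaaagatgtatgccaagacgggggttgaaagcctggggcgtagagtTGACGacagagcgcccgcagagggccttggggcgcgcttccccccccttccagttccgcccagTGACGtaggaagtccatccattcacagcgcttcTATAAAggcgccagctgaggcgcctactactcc
Jun: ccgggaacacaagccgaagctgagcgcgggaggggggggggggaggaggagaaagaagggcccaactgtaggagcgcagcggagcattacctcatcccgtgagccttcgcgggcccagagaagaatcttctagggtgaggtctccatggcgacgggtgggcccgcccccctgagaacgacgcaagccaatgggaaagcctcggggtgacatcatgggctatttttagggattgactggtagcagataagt
The *Junb* window held 1 match to TGACG, between 106 and 102 bases before the start. The *Fos* window held 2 matches to TGACG, at 129 to 125 and 66 to 62 bases before the start, and a TATAAA between 33 and 28 bases before it. The letters TGANTCA, the canonical AP-1 element, and the serum response element were also searched on both strands and were not among the letters of the 7 windows, nor was any of the 4 motifs in the *Jun* window. Over all 32851 RefSeq promoter windows of the same length, 17.8% held TGACG, 12.4% held TATAAA, 6.75% held TGANTCA, and 1.47% held the serum response element. *Fosb* and *Atf3* each held 1 match to TGACG, at 60 to 56 and at 7 to 3 bases before the start. These matches describe letters and not sites in use.

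Deposited values were RPKM, in which the reads of a gene are divided by its exonic length in kilobases and by the mapped reads of its library. The totals worked out from the low values were 22.8 to 37.6 M reads. When the RPKM of all genes were added up within a library, 48.7% to 64.3% of that total came from digestive enzymes. The lowest shares were in WT FAEE-SAP. These are shares of length-corrected values and not of reads. Libraries were therefore scaled by the median of ratios over 10985 genes, and levels below are scaled RPKM unless stated. The scaling factors were 0.621 to 0.866 with saline, 1.94 and 2.02 for WT FAEE-SAP, and 0.9754 and 1.05 for cKO FAEE-SAP. Deposited values of the members therefore rank the WT FAEE-SAP libraries higher than scaled values do. *Pfkfb3*, measured per gene, overlapped between genotypes, with 1.69 to 3.21 scaled RPKM in the 4 WT libraries and 0.880 to 2.82 in the 4 cKO libraries. These values do not test for the loss of single exons, and genotype below is that of the labels.

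The members spanned a wide range of levels, all compared per exonic length. *Jund* (chr8:70698949-70700616, plus strand, 1 exon), the Jun protein of resting cells, was the highest member in every group. Its scaled RPKM was 18.7 and 19.5 in WT saline and 20.02 and 34.4 in WT FAEE-SAP. In cKO it was 14.1 and 23.1 with saline and 12.4 and 18.3 with FAEE-SAP. In WT saline it was followed by *Myc*, *Jun*, *Junb*, *Fosl2*, and *Egr1*, and the ranges of these neighbours did not overlap, although *Fosl2* and *Egr1* were close (0.729 against 0.660 at their nearest). Below them *Egr1* overlapped with *Fos* and *Fos* with *Atf3*, and *Fosb* and *Fosl1* lay lowest and overlapped with each other. In WT FAEE-SAP the order began *Jund*, *Junb*, *Jun*, *Myc*, with these neighbours separated by range (*Jund* and *Junb* narrowly) and *Myc* overlapping with *Fosl2*. In cKO FAEE-SAP *Myc* stood in the place after *Jund* and overlapped with *Junb*. Within cKO saline only *Jund* over *Myc*, *Atf3* over *Fosb*, and *Fosb* over *Fosl1* were separated by range.

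**Figure D1:**
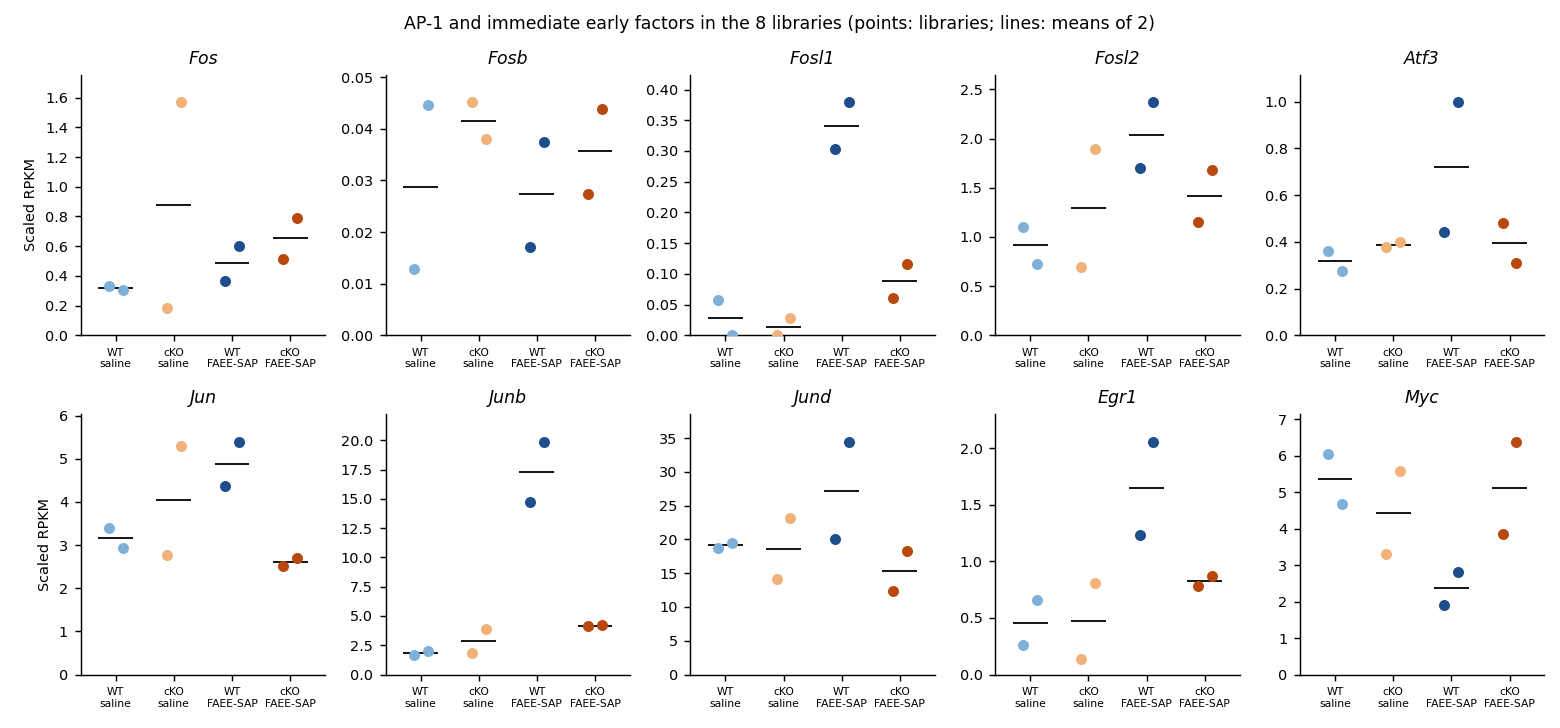
Scaled RPKM (vertical axes, each from 0) of the 10 members in the 8 libraries, by group on the horizontal axes, with each point a library and each line the mean of 2. *Junb* at 14.7 and 19.9 in WT FAEE-SAP stands above the other 6 libraries, *Myc* is lowest in that group, and replicate 2 of cKO saline holds the highest *Fos* value.

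Among the members, *Junb* had the largest fitted response to FAEE-SAP in WT pancreas, except with an added constant of 0.01, where *Fosl1* was above it. *Junb* (chr8:84974484-84978718, minus strand), an immediate early Jun protein that can replace or oppose c-Jun in the dimer, was at 1.68 and 2.001 scaled RPKM in WT saline and at 14.7 and 19.9 in WT FAEE-SAP. Both treated libraries lay far above both controls. The log2 fold change was 3.15 (SE 0.23), an 8.88-fold increase with a 95% interval of 6.03- to 13.1-fold and an adjusted p of 0.00313. Of the 10 members, *Junb* and *Fosl1* were called higher and none lower, in a comparison in which 6.89% of the 10894 genes tested were called, 3.11% higher and 3.78% lower. The *Junb* call was kept without any 1 of the 4 libraries, with adjusted p of 0.0118 to 0.0342. In bulk tissue, fewer cells of a type and less RNA per cell cannot be told apart.

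The other Jun genes were higher in WT FAEE-SAP by smaller amounts that did not pass the test. *Jun* (chr4:95049034-95052222, minus strand), the gene of c-Jun, was at 3.38 and 2.94 in WT saline and 4.36 and 5.39 in WT FAEE-SAP. The libraries did not overlap, and the log2 fold change was 0.61 (SE 0.21, adjusted p = 0.134). *Jund* was 0.46 higher on the log2 scale (SE 0.28, adjusted p = 0.342), and replicate 1 of WT FAEE-SAP, at 20.02, lay just above the control libraries.

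Within the Fos family, *Fosl1* passed the test from a very low base. *Fosl1* (chr19:5447547-5455946, plus strand), which encodes Fra-1, was at 0.0567 and 0 scaled RPKM in WT saline and at 0.303 and 0.379 in WT FAEE-SAP. These values stood for about 2 reads in both saline libraries together and about 77 in both FAEE-SAP libraries, a ratio of 15.5 with a 95% exact counting interval of 4.16 to 131. The fitted log2 change of 1.81 (SE 0.34, adjusted p = 0.0373) depends on the added 0.1 and understates a low gene. The filter admitted *Fosl1* only through the WT FAEE-SAP libraries, so it had to differ if it was tested at all. Its call was lost, at the same log2 change of 1.81, with no filter (adjusted p = 0.0710) and with the replicate block (adjusted p = 0.0705). It was also lost with quantile normalization (log2 change 1.92, adjusted p = 0.0513) and with an added constant of 0.01 (log2 change 3.76, adjusted p = 0.0900). With a constant of 1 the log2 change was 0.38, under the fold minimum (adjusted p = 0.0364). Without either WT FAEE-SAP library it was not tested.

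*Fosl2* (chr5:32135801-32157842, plus strand), which encodes Fra-2, was the highest Fos gene in WT mice. It was at 1.104 and 0.729 in WT saline and at 1.70 and 2.37 in WT FAEE-SAP. The ranges were separate, and the log2 fold change of 1.08 (SE 0.29) missed the threshold with an adjusted p of 0.0818. *Fos* itself (chr12:85473890-85477273, plus strand), the prototype of the family, was at 0.329 and 0.305 in WT saline and at 0.366 and 0.604 in WT FAEE-SAP. At 24 hours the interval of the *Fos* change ran from 0.823- to 2.29-fold (adjusted p = 0.378). *Fosb* (chr7:19302696-19310051, minus strand) was at 0.0128 to 0.0451 in all 8 libraries, which stands for about 1.6 to 14.8 reads, and was tested in no comparison. Its libraries overlapped between the groups of each comparison, and reads this few do not resolve small changes.

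*Atf3* (chr1:191170296-191218039, minus strand), a stress-induced factor that dimerizes with Jun proteins, was at 0.360 and 0.275 in WT saline and at 0.440 and 0.996 in WT FAEE-SAP. The treated libraries were more than 2-fold apart from each other, and the log2 fold change of 0.89 (SE 0.39) had an adjusted p of 0.210. *Egr1*, a zinc finger factor of the serum response, was at 0.259 and 0.660 in WT saline and at 1.23 and 2.06 in WT FAEE-SAP. Its log2 fold change of 1.70 (SE 0.44), the largest among members after *Junb* and *Fosl1*, had an adjusted p of 0.0720. With the replicate number as a block *Egr1* was called (adjusted p = 0.0366), whereas *Fosl1* was not.

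*Myc* was the only tested member that was lower in WT FAEE-SAP. *Myc* (chr15:61985391-61990374, plus strand), a regulator of growth and ribosome production, was at 6.05 and 4.69 in WT saline and at 1.92 and 2.82 in WT FAEE-SAP. The log2 fold change was -1.16 (SE 0.26), with an interval of -1.81 to -0.51 and an adjusted p of 0.0556. *Myc* was called lower with an RPKM minimum of 2 (adjusted p = 0.0455) and with a replicate block in which the WT saline numbers were crossed, an alternative added after seeing the data (adjusted p = 0.0190). It was not called with the planned replicate block (adjusted p = 0.0961), with no filter (adjusted p = 0.101), or without any 1 library (adjusted p of 0.111 to 0.206). The sign depends on the scaling, since the change was 0.12 on values as deposited, a scale on which all genes had a median shift of 1.24. Relative to the median of all genes on each scale, the change was -1.13 as deposited and -1.18 after scaling. These values are close by construction, since scaling also takes out a shift shared by all genes.

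In all, 8 of the 10 members lay higher in both WT FAEE-SAP libraries than in both WT saline libraries, 1 (*Myc*) lay lower, and *Fosb* overlapped, where 29.7% of all genes tested were separate in the higher direction and 29.1% in the lower. *Fos*, *Fosl1*, and *Atf3* were under the filter minimum in both WT saline libraries and so passed through the treated group, whereas *Fosl2*, *Jun*, *Junb*, *Jund*, and *Myc* were above it in both and *Egr1* in 1. Over all 10 members, taken without the filter, the median log2 difference was 0.75. Over the 5 members above the minimum in both WT saline libraries the median was 0.61, against 0.02 over all genes tested.

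**Figure D2:**
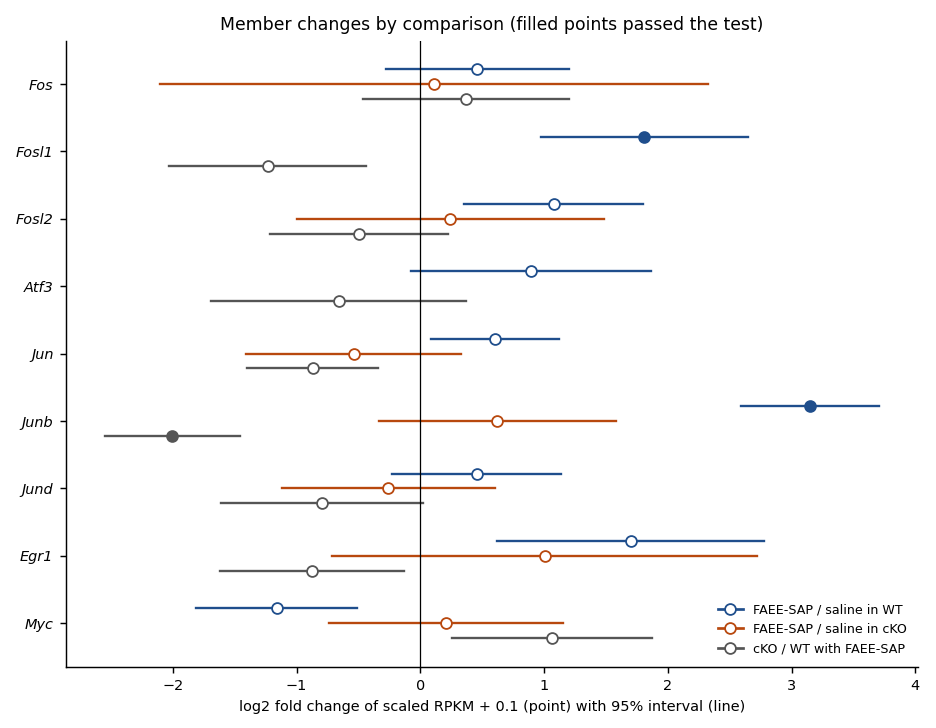
Fitted log2 fold changes (horizontal axis, scaled RPKM plus 0.1) of the 9 tested members (vertical axis) in 3 comparisons, with lines for 95% intervals and filled points for those that passed the test. *Junb* is at 3.15 for FAEE-SAP against saline in WT, at 0.62 for the same contrast in cKO, and at -2.01 for cKO against WT with FAEE-SAP, and *Myc* lies on the opposite side of 0 from *Junb* in the first and last of these.

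In cKO mice, no member was called between FAEE-SAP and saline, in a comparison in which 0.0531% of the 9423 genes tested were called higher and 0% lower. At an unadjusted p under 0.05 and a 2-fold change in the same limma fit, 201 of all genes were higher and 87 lower, 3.06% in all, and no member was among them. *Junb* was at 1.84 and 3.89 in cKO saline and at 4.17 and 4.19 in cKO FAEE-SAP. The groups did not overlap, but the higher saline library nearly reached the treated ones, and the log2 fold change was 0.62 with an interval of -0.34 to 1.58 (adjusted p = 0.613). Without replicate 2 of cKO saline this change was 1.14, and without replicate 1 it was 0.10. *Jun* was at 2.77 and 5.30 in cKO saline and at 2.52 and 2.70 in cKO FAEE-SAP, which gave -0.54 on the log2 scale (SE 0.34, adjusted p = 0.623). *Fosl1*, not tested here, was at 0 and 0.0281 in cKO saline and at 0.0608 and 0.117 in cKO FAEE-SAP. *Egr1* was at 0.780 and 0.872 in cKO FAEE-SAP, beside 0.133 and 0.812 in cKO saline. *Junb* and *Fosl1* were separate in the higher direction and *Jun* in the lower, where 19.6% and 23.6% of all genes tested were so.

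The replicates of cKO saline stood apart from each other for several members. *Fos* was at 0.181 scaled RPKM in replicate 1 and at 1.57 in replicate 2, and the latter was the highest *Fos* value of all 8 libraries, treated ones included. *Egr1* differed between the same libraries by 3.91-fold, *Fosl2* by 2.50-fold, and *Junb* by 2.06-fold (as ratios of scaled RPKM plus 0.1), each higher in replicate 2. Of the 6 members that reached 0.5 RPKM in this group (as the mean scaled value or in both deposited values), 3 (*Fos*, *Fosl2*, *Junb*) were at least 2-fold higher in replicate 2 and 0 lower, where 3.34% of the 9570 genes at that level were higher and 3.58% lower. The same held for 7 of 16 other immediate early genes, with 1 lower. *Fos* reached the level only through replicate 2, so that a gap was built into its being counted. In each of the remaining groups at most 1 member at that level differed so far. Smaller gaps ran the same way, with every member higher in replicate 2 of WT FAEE-SAP and all but *Atf3* in cKO FAEE-SAP. In WT FAEE-SAP 4 of 16 other immediate early genes were at least 2-fold higher in replicate 2 and 0 lower (1.95% and 2.22% of all genes). In cKO FAEE-SAP 3 of 17 were higher and 1 lower (2.56% and 4.08%), and in WT saline 1 of 17 each way (3.2% and 1.65%). With saline, no member was called between cKO and WT, and 0% of the 8715 genes tested were called in either direction (37 were higher and 31 lower at an unadjusted p under 0.05 and a 2-fold change in the limma fit, with 0 members among them). Without replicate 2 of cKO saline, the log2 difference between cKO and WT with saline was -0.33 for *Fosl2*, -0.18 for *Jun*, and -0.00066 for *Junb*, against 0.34, 0.27, and 0.52 with it.

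**Figure D3:**
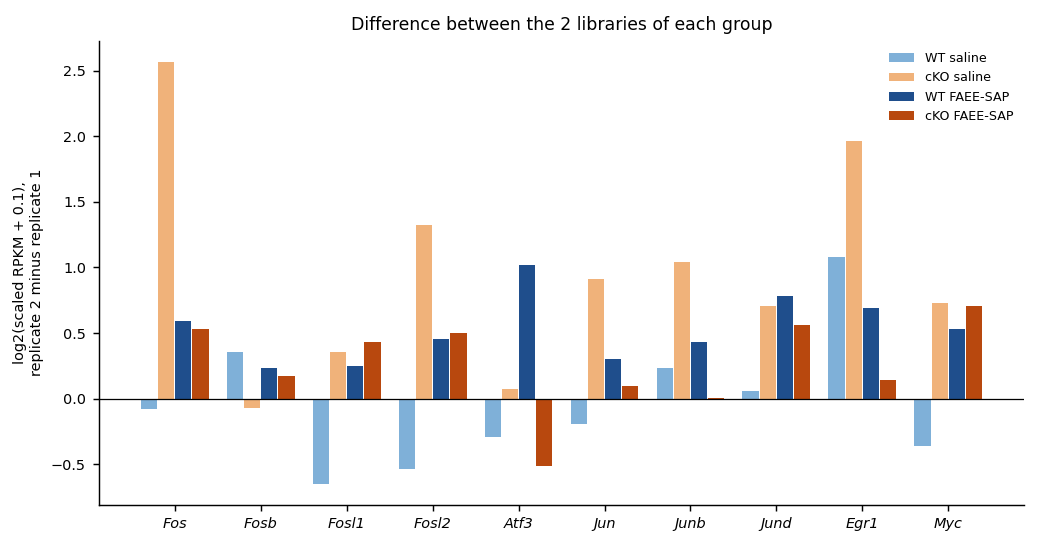
Difference between replicate 2 and replicate 1 of each group, in log2(scaled RPKM + 0.1) on the vertical axis, for the 10 members on the horizontal axis, with bars coloured by group. The cKO saline bars reach 2.57 for *Fos*, 1.97 for *Egr1*, 1.32 for *Fosl2*, and 1.04 for *Junb*.

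The comparison of genotypes after FAEE-SAP sets injured cKO tissue against injured WT tissue. In it, deletion of *Pfkfb3* and the origin of the mice cannot be told apart. *Junb* was at 14.7 and 19.9 in WT FAEE-SAP and at 4.17 and 4.19 in cKO FAEE-SAP. The cKO libraries lay close together, far below both WT libraries. *Junb* was 4.02-fold lower in cKO (log2 fold change -2.01, SE 0.22, 95% interval -2.55 to -1.46, adjusted p = 0.0243). It was the 1 member called of 10, in a comparison in which 1.17% of the 11008 genes tested were called, 0.354% lower and 0.818% higher. The size was stable, at -2.23 to -1.79 without each library in turn, but the call was lost without any 1 of the 4 (adjusted p of 0.0513 to 0.158), with no filter (adjusted p = 0.1003), and with no intensity trend (adjusted p = 0.0517).

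Among the other Jun genes after FAEE-SAP, *Jun* was at 4.36 and 5.39 in WT and at 2.52 and 2.70 in cKO, a log2 difference of -0.87 (SE 0.21, adjusted p = 0.130). *Jund* was at 20.02 and 34.4 in WT and at 12.4 and 18.3 in cKO, a log2 difference of -0.80 (SE 0.33, adjusted p = 0.263). Neither passed the test, although the libraries of both were separate. *Fosl1* was at 0.303 and 0.379 in WT and 0.0608 and 0.117 in cKO, about 77 against about 11 reads. It passed the filter through the WT FAEE-SAP libraries alone, so that a lower cKO value was built into its being tested. The ratio of WT to cKO was 3.76 with an exact counting interval of 1.99 to 7.85, and the limma adjusted p was 0.139. *Fosl2* was at 1.70 and 2.37 in WT and 1.15 and 1.68 in cKO (log2 difference -0.50, adjusted p = 0.408), so the lower WT library and the higher cKO library were close.

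*Egr1* was at 1.23 and 2.06 in WT FAEE-SAP and at 0.780 and 0.872 in cKO FAEE-SAP, a log2 difference of -0.87 (SE 0.30, adjusted p = 0.203). *Atf3* overlapped between the genotypes (0.440 and 0.996 in WT, 0.482 and 0.308 in cKO, adjusted p = 0.445). *Fos* also overlapped, at 0.366 and 0.604 in WT and at 0.515 and 0.789 in cKO. *Myc* went the other way, at 1.92 and 2.82 in WT and at 3.87 and 6.39 in cKO, a log2 difference of 1.06 (SE 0.33, adjusted p = 0.174). With the replicate number as a block *Myc* was called higher in cKO (adjusted p = 0.0304). The cKO FAEE-SAP values of *Myc* overlapped with those of both saline groups. Of the 10 members, 6 were separate in the lower direction, *Fosl1* among them, and 1 in the higher, where 25.3% and 26.5% of all genes tested were so. The WT FAEE-SAP libraries enter this comparison and the WT response alike, so that opposite signs in both are tied in part through shared samples.

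Whether the FAEE-SAP response itself differed between genotypes was tested as an interaction over all 8 libraries. No member was called, where 0.0719% of the 11133 genes tested were called, 0.0269% lower and 0.0449% higher. *Junb* had the largest estimate of the members, -2.53 on the log2 scale (SE 0.47, 95% interval -3.64 to -1.41), with an unadjusted limma p of 0.000961 and an adjusted p of 0.151. A difference in the *Junb* response is thus not established across all genes, although on values as deposited it passed (log2 -3.20, adjusted p = 0.0430, the lowest of 0.0430 to 0.414 over the alternatives). With an unadjusted p in the same limma fit, 3 members passed with a 2-fold difference (*Jun*, *Junb*, and *Myc*), where 7.02% of all genes tested did so. *Myc* had an estimate of 1.37 (SE 0.49, adjusted p = 0.343) and *Jun* of -1.14 (SE 0.42, adjusted p = 0.346).

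Ratios of members within a library do not depend on the scaling of that library. *Junb* was 0.0899 and 0.103 of *Jund* by RPKM in WT saline and 0.130 and 0.168 in cKO saline. After FAEE-SAP the ratio was 0.734 and 0.577 in WT, against 0.336 and 0.229 in cKO. The 4 groups were separate from each other on this ratio, and an exact two-sided permutation test gave 0.333 for each contrast, the smallest p that 2 against 2 libraries allow. *Jun* relative to *Jund* stayed between 0.147 and 0.229 in all 8 libraries. Of the summed RPKM of the 7 Fos and Jun genes, *Junb* made up 6.65% and 7.84% in WT and 9.33% and 10.9% in cKO with saline, against 35.4% and 31.5% in WT and 20.004% and 15.1% in cKO with FAEE-SAP. *Jund* held 74.0% and 76.4% of that sum in WT saline and 48.3% and 54.6% in WT FAEE-SAP.

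The 4 Fos genes together made up 4.23% to 9.85% of the family sum. Their share after FAEE-SAP was 5.75% and 5.37% in WT, against 8.43% and 9.43% in cKO. *Fosl2* exceeded *Fos* in every library, by 4.63- and 3.92-fold in WT FAEE-SAP and by 2.24- and 2.12-fold in cKO FAEE-SAP. The same ratio was 3.35 and 2.39 in WT saline and 3.85 and 1.21 in cKO saline, so the saline libraries spanned most of that range.

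**Figure D4:**
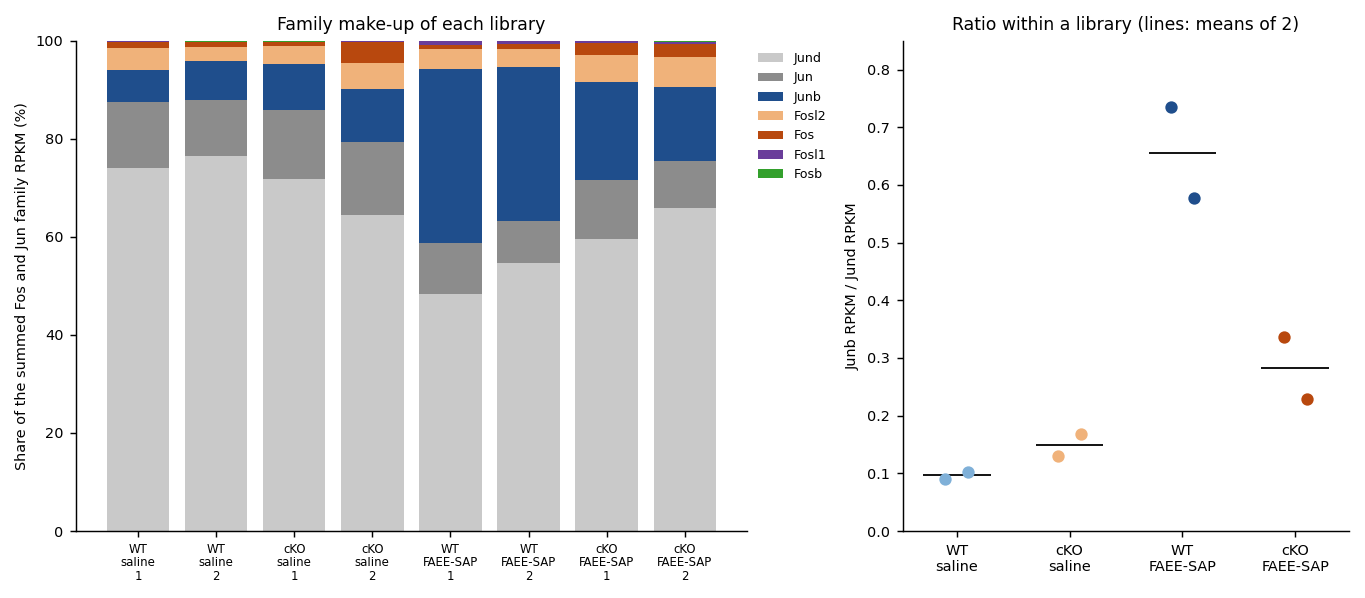
Left, share of each of the 7 genes in the summed Fos and Jun family RPKM (vertical axis, %) in each of the 8 libraries, with group and replicate on the horizontal axis. Right, *Junb* RPKM divided by *Jund* RPKM, with points for libraries and lines for means of 2, which reads 0.0963 in WT saline, 0.149 in cKO saline, 0.656 in WT FAEE-SAP, and 0.283 in cKO FAEE-SAP.

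In WT after FAEE-SAP, neutrophil markers rose as *Junb* did, whereas acinar markers fell. The summed scaled RPKM of 6 neutrophil markers ranged from 1.20 to 3.65 with saline. After FAEE-SAP it reached 58.6 and 53.1 in WT and 19.7 and 12.2 in cKO, with *Ly6g* at 0 in all 4 saline libraries and in 1 cKO FAEE-SAP library. The sum of 7 acinar markers was 84905 to 115331 with saline and, after FAEE-SAP, 23222 and 26673 in WT against 57008 and 55243 in cKO, so the tissue carried its defining markers in every group. Macrophage markers summed to 52.0 to 68.3 with saline and, after FAEE-SAP, to 85.7 and 61.1 in WT and 81.3 and 69.3 in cKO. The WT FAEE-SAP libraries overlapped with all other groups, whereas both cKO FAEE-SAP libraries lay just above the saline ones. Of 4 heat shock genes, a sign of stress or handling, the sum was 2.76 to 4.27 with saline and, after FAEE-SAP, 6.49 and 5.69 in WT and 3.21 and 3.98 in cKO. The sum of 4 islet genes was 228 to 321 with saline and, after FAEE-SAP, 132 and 187 in WT against 352 and 365 in cKO. Of these, *Gcg* (glucagon) and *Sst* (somatostatin) were called higher in cKO than in WT with FAEE-SAP. All 4 were separate between the genotypes with cKO higher, where 26.5% of all genes tested were so. In WT after FAEE-SAP, *Sst* was called lower, but the median log2 change of the 4 genes there was -0.87 after scaling and 0.44 on values as deposited. On deposited values no islet gene was called in either comparison. The part of these markers in the member values was not tested. Replicate 2 of cKO saline, with high *Fos* and *Egr1*, had the lowest neutrophil sum (1.20), and its heat shock sum of 3.55 lay within those of the other saline libraries.

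**Figure D5:**
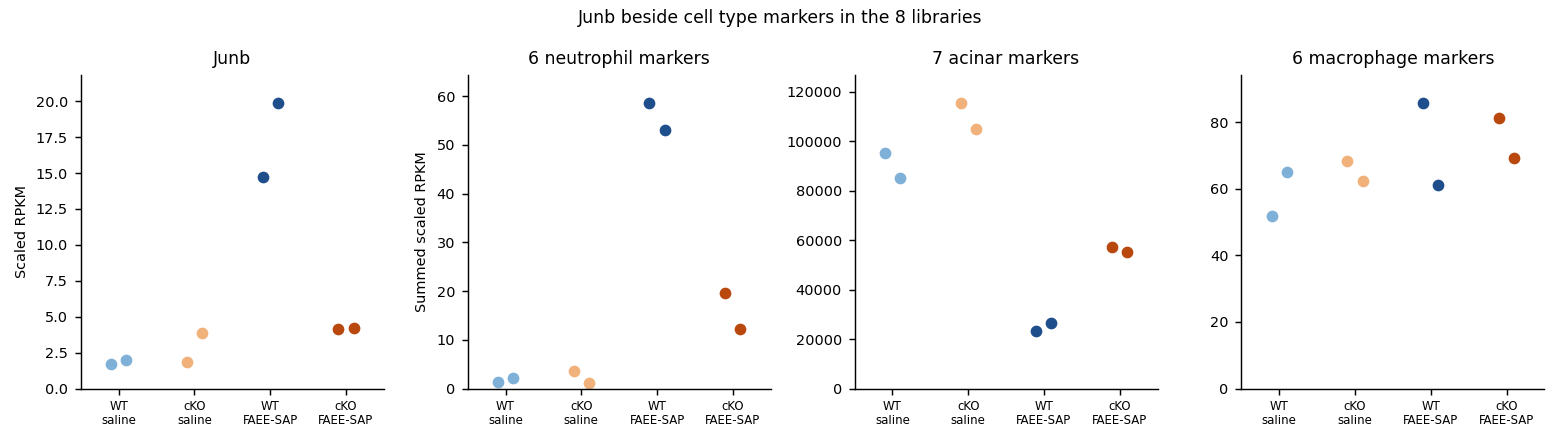
*Junb* (scaled RPKM) beside the summed scaled RPKM of 6 neutrophil, 7 acinar, and 6 macrophage markers (vertical axes, from 0) in the 4 groups (horizontal axes), each point a library. WT FAEE-SAP is highest for *Junb* and for neutrophil markers and lowest for acinar markers, with cKO FAEE-SAP in between for both marker sums, and macrophage markers in WT FAEE-SAP overlap with every other group.

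Some members share exonic sequence with a gene on the opposite strand, and how strand was used in the counting is not given in the sources used here. *Junb* shares 173 bases with *Prdx2*, which was at 3.76 to 5.92 scaled RPKM in all 8 libraries. Its WT saline libraries (3.76 and 4.47) lay below those of cKO FAEE-SAP (4.69 and 4.88), and every other pair of groups overlapped. *Fosl1* shares 1163 bases with *Ccdc85b*, which was at 3.58 to 6.37 and thus above *Fosl1* everywhere. *Jun* shares 232 bases with *Junos*, at 0.00805 to 0.0733, and *Jund* shares 877 bases with *Gm11175*, at 0.0813 to 0.424.

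The genes around the members were read from fixed lists. None of 9 tested AP-1 dimer partners of the Batf, Atf, and Maf type, 20 upstream kinases and factors, 8 genes of the Myc network, and 15 Myc targets was called in WT after FAEE-SAP, and their median log2 fold changes were 0.02, 0.19, -0.05, and -0.09, against 0.02 over all genes tested. None was called in the other comparisons either. At an unadjusted p with a 2-fold change in limma, 2 upstream genes were higher in WT, 1 dimer partner was lower in cKO, and 1 upstream gene and 1 dimer partner were lower in the interaction. These counts depend on the scaling. On values as deposited 9, 15, 6, and 9 of them were called higher in WT, at medians of 1.23, 1.45, 1.24, and 1.22 beside 1.24 over all genes. On the same values 5, 12, 3, and 6 were called lower in cKO than in WT with FAEE-SAP, and 0, 1, 1, and 1 were called lower in the interaction. Of 17 other immediate early genes tested, 2 were called higher and 1 lower in WT, where 3.11% of all genes were called higher and 3.78% lower. On values as deposited, 13 were called higher and 0 lower, beside the median shift of 1.24 over all genes. Between the genotypes with FAEE-SAP 0 of 17 were called (1 higher and 2 lower at an unadjusted p with a 2-fold change in limma), and in the interaction 0 of 17 (1 lower by that rule). On values as deposited these counts were 7 and 1, all lower. *Ier3*, a survival gene of the NF-κB response, was at 0.813 and 0.934 in WT saline and, after FAEE-SAP, at 6.93 and 6.74 in WT and 3.31 and 1.82 in cKO. Its log2 fold change was 2.84 in WT (adjusted p = 0.00304) and 1.09 in cKO (adjusted p = 0.621). In cKO saline *Ier3* was at 0.528 and 2.20, so the cKO groups overlapped. *Btg2*, an antiproliferative immediate early gene, was at 13.5 and 13.9 in WT saline and, after FAEE-SAP, at 33.99 and 67.8 in WT and 10.1 and 17.5 in cKO, and also differed within cKO saline (13.7 and 43.5). *Nr4a2*, an orphan nuclear receptor, had a log2 fold change of -1.76 in WT (adjusted p = 0.0362).

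Of 12 known AP-1 targets tested in WT, 6 were called higher (*Ccl2*, *Timp1*, *Mmp9*, *Hmox1*, *Mmp3*, and *Spp1*) and 0 lower, where 3.11% of all genes were called higher. *Ccl2*, *Mmp9*, and *Timp1* were under the filter minimum in both WT saline libraries and *Mmp3* in 1 of them, so that the first 3 could be tested only through the treated libraries. Of the 4 targets at the minimum in both WT saline libraries, 2 (*Hmox1* and *Spp1*) were called higher. The median log2 fold change of those 4 was 0.69. Over all 18 listed targets without the filter the median log2 difference was 1.17, beside 0.02 over all genes tested. *Ccl2*, a monocyte chemokine, was at 0.170 and 0.148 in WT saline and, after FAEE-SAP, at 5.11 and 1.80 in WT and 3.01 and 1.08 in cKO. *Timp1*, an inhibitor of matrix proteases, was at 0.545 and 0.571 in WT saline and, after FAEE-SAP, at 7.81 and 5.78 in WT and 6.82 and 4.93 in cKO. Its genotypes overlapped after FAEE-SAP, unlike those of *Junb*. *Hmox1*, the heme-degrading enzyme, was after FAEE-SAP at 6.21 and 8.08 in WT, against 5.77 and 6.25 in cKO, also with overlap. *Mmp9*, a gelatinase abundant in neutrophils, was at 1.49 and 1.85 in WT FAEE-SAP and at 0.920 and 0.450 in cKO FAEE-SAP (log2 difference -1.23, adjusted p = 0.164). In cKO, 0 of 9 tested targets were called (4 were higher at an unadjusted p with a 2-fold change in limma, and 1 was called higher on values as deposited), although the log2 change of *Timp1* was 3.98 (adjusted p = 0.124) beside 3.37 in WT. None was called between the genotypes with FAEE-SAP or saline, but 8 were called lower in cKO than in WT with FAEE-SAP on values as deposited.

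The members did not all vary together over the 8 libraries. As a description over libraries that share groups and scaling, Pearson's r of each member with the mean of the others was 0.95 for *Fosl2*, 0.86 for *Egr1*, and 0.80 for *Junb*, and was -0.40 for *Myc*. The genes whose levels were most like the mean of the 9 members, of 11124 ranked, were *Acer2*, an alkaline ceramidase (r = 0.98), *Dlst*, a subunit of the 2-oxoglutarate dehydrogenase complex (r = 0.97), and *Traf3ip2*, an adaptor of IL-17 receptors (r = 0.97). Their spans were small, *Acer2* from 0.483 to 1.03, *Dlst* from 6.17 to 9.69, and *Traf3ip2* from 1.41 to 2.02 scaled RPKM. All 3 were lowest in replicate 1 of cKO saline and highest in replicate 2 of WT FAEE-SAP.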

How the data were processed

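RNA-Seq of bulk mouse pancreas was used, with 2 libraries in each of 4 groups assigned by their labels. The authors deposited RPKM for 48709 genes per library. Per the methods of the study, RNA was extracted with TRIzol, libraries were made with a directional kit, reads were filtered with fastp and mapped to GRCm38.p6 in CLC Genomics Workbench. How reads were counted, and whether by strand, is not given in the sources used here. The mapped total divides every value, so a few abundant enzyme genes affect all others. Reads were worked out from RPKM, GENCODE vM21 exonic length (95.1% of genes matched by symbol), and the library total that made low values whole. Between 84.5% and 85.8% of values under 20 reads were whole within 0.1, so reads are approximate and no count model was used. For replicate 1 of WT FAEE-SAP a doubled total did about as well (86.0% against 85.8%).

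Libraries were scaled by the median of ratios over all 8. Genes with a deposited RPKM of at least 0.5 in at least 2 libraries of a comparison were tested on log2(scaled RPKM + 0.1), which understates changes of low genes, by moderated linear models with an intensity trend (limma 3.58.1, R 4.3.3). Only the 4 libraries compared entered each fit, and all 8 entered the interaction. Genes were called at a Benjamini-Hochberg adjusted p under 0.05 over all genes tested and at least a 2-fold change. Ratios within libraries were compared with exact permutation tests. The procedure was tested on simulated data. Tables and plots used Python 3.11.15, pandas 2.3.3, scipy 1.17.1, and matplotlib 3.10.9. Intervals of read ratios cover counting error only.

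The members, lists, and tests were chosen with earlier results of these data known. Named genes were the 10 members, in each comparison at most 4 called genes of each other list with the largest change (*Mmp3*, *Spp1*, *Pfkfb3*, and the opposite-strand neighbours were added after their values were seen), the marker sums, and the 3 genes most like the member mean. Counts of calls and sums of the digestive enzyme list, and of the ductal, T cell, B or plasma cell, fibroblast, endothelial, adipocyte, mesothelial, and red blood cell markers, are in the closing section. Alternatives were values as deposited, trimmed mean of log ratios, quantile and within-comparison scaling, an RPKM minimum of 2 or no filter, added constants of 1 and 0.01, no trend, 1 model of all 8 libraries, a replicate block, an unadjusted p, no fold minimum, and each library left out.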

Additional observations from a re-analysis of the deposited data

Results flagged for a closer look

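*Jun* was the 1 member whose libraries moved in opposite directions with FAEE-SAP in the 2 genotypes. Both WT FAEE-SAP libraries (4.36 and 5.39 scaled RPKM) lay above both WT saline libraries (3.38 and 2.94), and both cKO FAEE-SAP libraries (2.52 and 2.70) lay below both cKO saline libraries (2.77 and 5.30). Of all genes tested, 29.7% were separate in the higher direction and 29.1% in the lower in WT. In cKO these shares were 19.6% and 23.6%, and how many genes separated in opposite directions was not counted. The difference between the responses was -1.14 on the log2 scale (SE 0.42), with an adjusted p of 0.346 in limma over all genes, so it did not pass the test. The lower cKO saline library lay close to the treated ones, and on values as deposited the *Jun* change in cKO was 0.09, in the other direction.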

How the results depend on the processing

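The count of members called depended on the processing. For cKO against WT with FAEE-SAP it was 1, and became 7 (all lower) with values as deposited, 0 with no filter, 0 with no intensity trend, 2 with the replicate block (*Junb* lower, *Myc* higher), 3 with an unadjusted p (8.06% of all genes), and 0 to 0 without each library in turn. For FAEE-SAP against saline in WT it was 2, and became 8 with values as deposited, 1 with quantile normalization, 1 with no filter, 1 with an added constant of 1, 1 with 0.01, 5 with an unadjusted p (11.9% of all genes), 4 with the replicate block in which the WT saline numbers are crossed (added after seeing the data; *Fosl1*, *Fosl2*, and *Junb* higher, *Myc* lower), and 1 to 2 without each library. The block with crossed numbers called 10.2% of all genes, 528 higher and 582 lower. The count of members stayed 2 but changed in content with the replicate block (*Egr1* in place of *Fosl1*) and with an RPKM minimum of 2 (*Junb* higher, *Myc* lower). For the interaction it was 0, and became 1 (*Junb*) with values as deposited (7.11% of all genes, 21 higher and 770 lower) and 3 with an unadjusted p (7.02%). It stayed 0 in cKO and with saline under every alternative run. Values as deposited move the median log2 change of all genes by 1.24 in WT, -0.91 between genotypes with FAEE-SAP, and 0.57 in cKO, and call 66.7%, 40.2%, and 0.159% of genes, mostly in 1 direction (7184 higher and 86 lower in WT, against 339 and 412).

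Signs turned for *Fos* between genotypes with FAEE-SAP (-0.47), *Jun* between genotypes with saline (-0.021), *Myc* in WT (0.12), and *Jun* and *Jund* in cKO (0.091 and 0.39) with values as deposited, and for *Fos* in cKO (-0.081) with an added constant of 1. Leaving out a library gave ranges that crossed 0 between genotypes with saline for *Egr1* (-0.73 to 0.81), *Fosl2* (-0.33 to 1.01), *Jun* (-0.18 to 0.73), *Junb* (-0.00066 to 1.05), *Jund* (-0.43 to 0.27), and *Myc* (-0.67 to 0.065). In cKO they crossed 0 for *Fos* (-1.18 to 1.41), *Fosl2* (-0.43 to 0.90), *Jund* (-0.62 to 0.088), and *Myc* (-0.17 to 0.57), and in the interaction for *Egr1* (-1.70 to 0.30) and *Fos* (-1.65 to 0.95). The causes were not tested. *Junb* kept its direction in WT (2.67 to 4.44 over all alternatives) and between genotypes with FAEE-SAP (-2.97 to -1.79).

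The replicate numbers are not known to pair the libraries. Deviations of same-numbered libraries correlated at 0.313 with FAEE-SAP, -0.387 with saline, -0.177 in WT, and 0.447 in cKO across genes. With the block, the share of all genes called was 6.51% between genotypes with FAEE-SAP (1.17% without), 4.89% in WT (6.89%), and 1.44% in cKO (0.0531%). Over single members and all alternatives other than leaving out a library, 463 results were unchanged in direction and call, 26 gained a call, 7 lost one, and 6 reversed. Leaving out a library left 164 unchanged, 4 without their call, and 16 reversed. With 2 libraries per group, members under about 20 reads were limited by depth. These were *Fosb* in all libraries, *Fosl1* in all but WT FAEE-SAP, *Atf3* in the 4 saline and 1 cKO FAEE-SAP libraries, *Fos* in 3 saline libraries, and *Egr1* in 1.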

Other observations

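Digestive enzymes moved against *Junb*. Of 26 tested, 25 were called lower in WT after FAEE-SAP and 19 were called higher in cKO than in WT with FAEE-SAP, and their summed level was 403257 to 561692 scaled RPKM with saline and, after FAEE-SAP, 119918 and 125572 in WT against 320219 and 360037 in cKO. On values as deposited these counts were 6 and 3. All 5 tested neutrophil markers were called higher in WT, 4 of them under the filter minimum in both WT saline libraries, and 2 were called lower in cKO than in WT with FAEE-SAP. *Cd14*, a receptor of monocytes and neutrophils on the macrophage list, had a log2 fold change of 3.38 in WT (adjusted p = 0.00286) and of -2.34 in cKO against WT with FAEE-SAP (adjusted p = 0.0150). It was the only macrophage marker called in either. Of the 6 markers, 3 were higher and 3 lower in WT (median log2 change 0.18). Between genotypes with FAEE-SAP, 4 were higher in cKO and 2 lower (median 0.34).

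Over all 8 libraries the remaining marker sums were 23.7 to 35.6 scaled RPKM for 6 ductal genes, 2.996 to 8.81 for 5 T cell genes, 13.2 to 31.0 for 6 B or plasma cell genes, 49.4 to 62.7 for 6 fibroblast genes, 9.98 to 15.95 for 4 endothelial genes, 5.28 to 42.3 for 4 adipocyte genes (*Lep* at 0 in 4 libraries), 0.799 to 3.77 for 3 mesothelial genes, and 57.3 to 342 for 5 red blood cell genes. None of the tested genes of these 8 lists was called in any of the 5 limma comparisons, and 0 or 1 gene of a list had an unadjusted p under 0.05 with a 2-fold change. On values as deposited, 15 of them were called higher in WT and 4 were called lower in cKO than in WT with FAEE-SAP. After FAEE-SAP, the sums were separate between genotypes for ductal (30.1 and 23.7 in WT, 32.7 and 34.7 in cKO), endothelial (10.4 and 10.47, 15.95 and 12.2), and mesothelial genes (0.799 and 0.895, 2.61 and 1.17), each lower in WT. The sums of the other lists overlapped. Of all single genes tested, 26.5% were separate in that direction. Red blood cell genes were highest in replicate 1 of cKO saline (342) and at 67.6 in replicate 2, the library with high *Fos*.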
